A study of Homo sapiens with 74 samples.

Results

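WBP4, also called FBP21, is a zinc finger protein (ZFP) with a U1-type zinc finger and WW domains, and is known as a component of the spliceosome before its activation. The spliceosome is built from small nuclear ribonucleoproteins (snRNPs), each named for the small nuclear RNA (snRNA) it carries. U1 snRNA pairs with the 5′ splice site and U2 snRNA with the branch site, while U4 snRNA enters with U6 and U5. Genes for U1, U2 and U4 snRNA are transcribed by RNA polymerase II and exist in several copies, and RN7SK, RN7SL1, RPPH1 and RMRP are among the non-coding RNA genes of RNA polymerase III.

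The data described here were the 2 Cut&Run peak lists titled WBP4, taken whole. In Cut&Run, an antibody directs a nuclease to its target in unfixed chromatin, and the released DNA fragments are sequenced. HEK293T cells, a human embryonic kidney line, were transfected with a plasmid carrying WBP4 with a V5 tag at its C-terminus, driven by the promoter of the elongation factor gene EEF1A1. Cut&Run with an antibody against V5 was carried out 48 h after transfection, in 2 biological replicates. Peaks were called against a mock IP, the same immunoprecipitation from cells without the plasmid. WBP4 was therefore overexpressed, and the endogenous protein was not assayed. The series held such lists for 36 ZFPs, with 92122 peaks in 72 lists of 15 to 8702 peaks (median 631). WBP4 had 961 of these peaks, 509 in replicate 1 and 452 in replicate 2. The fold of a peak is its enrichment over the mock IP at the peak summit, and every deposited WBP4 peak had a q-value under 0.05. The depth of the single libraries is unknown here, since the sources give it only as about 10 M paired-end reads each.

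The plasmid left its mark in both lists. The start of EEF1A1, chr6:73520048-73521255, whose promoter sequence the plasmid carries, held the highest fold, 7314 in replicate 1 and 2577 in replicate 2, and this region was in the lists of all 35 other ZFPs. On WBP4 itself, 5 regions, on exons 3 and 4, 5, 8, 9 and 10, reached folds of 1690 to 2798 in replicate 1 and 685 to 1267 in replicate 2, and were in no other ZFP's list. Both labels were thus borne out by the tagged gene, and the 6 regions were set aside. Overlapping peaks of both lists were joined into 750 regions. Of these, 173 held a peak of each replicate (167 without WBP4 and EEF1A1), 322 a peak of replicate 1 only and 255 a peak of replicate 2 only.

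**Figure D1:**
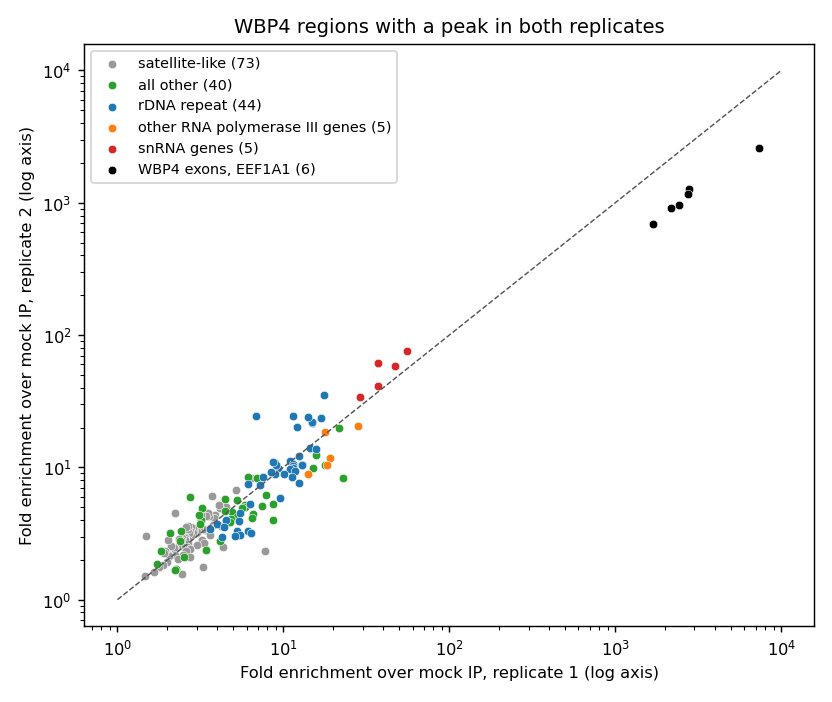
Fold enrichment over mock IP in replicate 1 (x axis) and replicate 2 (y axis) of the 173 WBP4 regions with a peak in both replicates, on log axes, with colours for their annotation and a dashed line at equal folds. The 5 snRNA gene regions, all of U1 genes, sit at 28.8 to 55.8 and 34.3 to 75.9, and only the 6 regions on WBP4 exons and EEF1A1 lie above them in both replicates.

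Outside WBP4 and EEF1A1, the 5 regions with the highest lower fold, the smaller of the folds of both replicates, were all at genes of U1 snRNA. RNU1-2 at chr1:16895980-16896143 had the highest fold of both lists, 55.8 in replicate 1 and 75.9 in replicate 2. RNU1-27P reached 47.2 and 58.8, RNU1-4 37.2 and 62.0, RNVU1-29 37.0 and 41.1, and RNU1-28P 28.8 and 34.3. All 5 had a higher fold in replicate 2, whereas the folds on WBP4 exons and EEF1A1 were higher in replicate 1. The region at RNU1-2 (hg38, plus strand, chr1:16895979-16896163) is shown with the annotated gene in capitals, since its edges nearly coincided with those of the gene. The first bases, ATACTTACCTG, form the 5′ end of the snRNA, which recognises the 5′ splice site.
RNU1-2: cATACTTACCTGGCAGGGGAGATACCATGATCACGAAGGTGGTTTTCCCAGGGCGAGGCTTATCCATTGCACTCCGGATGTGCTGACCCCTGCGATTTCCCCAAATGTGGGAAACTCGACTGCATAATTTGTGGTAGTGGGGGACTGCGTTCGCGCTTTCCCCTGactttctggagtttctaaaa

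The 5 genes do not differ in sequence. The 164 bases of RNU1-2 occur in 9 exact copies in hg38, of which 8 are annotated genes (RNU1-1, RNU1-2, RNU1-3, RNU1-4, RNU1-27P, RNU1-28P, RNVU1-18 and RNVU1-29) and 1 lies on an unlocalized contig of chromosome 1. All 9 copies had a peak in replicate 1, and 5 had one in replicate 2. Reads that lie inside the gene fit each copy equally well, so the folds of single copies are uncertain, and the sources used here do not give how such reads were assigned. A further 2 U1 genes had a peak in replicate 1 only, RNVU1-28 (fold 16.4) and RNVU1-7 (fold 19.9), and each differs from RNU1-2 by 1 base. The differing base is in capitals in their sequences, read on the strand of transcription, and is G37T in RNVU1-28 and T150C in RNVU1-7, counted from the first base of the gene.
RNVU1-28, chr1:144560666-144560829: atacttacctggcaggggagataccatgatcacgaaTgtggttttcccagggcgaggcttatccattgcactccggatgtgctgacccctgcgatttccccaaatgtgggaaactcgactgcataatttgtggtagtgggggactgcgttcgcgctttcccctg
RNVU1-7, chr1:148038753-148038916: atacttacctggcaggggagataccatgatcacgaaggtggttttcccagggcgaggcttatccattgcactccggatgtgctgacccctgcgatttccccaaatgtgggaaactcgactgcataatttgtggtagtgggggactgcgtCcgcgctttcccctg
Other U1 variants of the same length, RNVU1-1 (96.3% identical to RNU1-2, compared base by base without gaps), RNVU1-17 (93.3%), RNVU1-6 (90.9%) and RNVU1-4 (79.9%), had no peak in either WBP4 list. RNVU1-14, which aligns to RNU1-2 only with a gap, had none either.

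Of the 37 snRNA genes in a list of spliceosomal and related snRNA genes that were found in the annotation (38 were listed), 4 lay within 500 bp of a WBP4 region of both replicates (10.8%) and 12 within 500 bp of a region of either replicate (32.4%). Among all 1901 genes annotated as snRNA, the shares were 0.316% and 1.05%, and among all 62663 annotated genes 0.115% and 0.881%. The list held the multicopy U1 genes just described, so its members are not independent. The other listed snRNA genes were found in replicate 1 only. RNU4-2, a U4 gene, had a fold of 11.2 and its neighbour RNU4-1 one of 6.82. The U2 genes RNU2-2P and RNU2-1 had folds of 9.18 and 7.67, and RNU2-1 too lies in an array of identical copies, with 11 exact copies in hg38. Of the U2 copies without a symbol of their own, 4 had a peak in replicate 1 only (folds 4.19 to 9.07) and 1, at chr17:43271369-43271559, a peak in replicate 2 only (8.26), so U2 sequence was in both lists. No peak lay on the listed genes of U5, U6, U7, U11 or U12 snRNA in either list.

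RNA polymerase III genes other than those of snRNA were the most fully covered list. Of the 13 genes in the annotation (14 were listed), 5 had a region of both replicates within 500 bp (38.5%) and 6 one of either replicate (46.2%). Among all 62663 annotated genes the shares were 0.115% and 0.881%. The list held several genes of the same RNA, such as RN7SL1 and RN7SL2, so its members are not independent. RN7SK, whose RNA holds the transcription elongation factor P-TEFb inactive, had folds of 28.0 and 20.4 in replicates 1 and 2. RN7SL1 and RN7SL2, which encode the RNA of the signal recognition particle, had 17.7 and 18.5, and 19.0 and 11.8. RPPH1, the RNA of ribonuclease P, had 18.4 and 10.5, and RMRP, the RNA of ribonuclease MRP, 14.1 and 8.83. Of these 5, 4 had the higher fold in replicate 1, whereas all 5 U1 regions had it in replicate 2. RN7SL3 was in replicate 2 only, at a fold of 5.97. The vault RNA and Y RNA genes of the list had no peak on the gene.

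Among small nucleolar RNA genes, SNORD3B-1, a gene of the U3 RNA that takes part in ribosomal RNA processing, had folds of 15.8 and 12.3. Its relatives SNORD3A, SNORD3C and SNORD3B-2 were in replicate 1 only, with folds of 17.1, 12.9 and 9.83.

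Peaks on small RNA genes followed the gene rather than the sequence before it. Of 42 WBP4 peaks on genes of these kinds, 32 had both edges within 50 bp of the ends of the gene. Many of these peaks lie on identical copies of U1 genes (9 in hg38) and U2 genes (11), so they are not independent. How reads were assigned among such copies is unknown, and whether this shaped the edges was not tested. The peak on RNU1-2 began 0 bp before the first base of the gene in replicate 1 and 1 bp before it in replicate 2, and ended 12 and 20 bp past its last base. On RN7SK, peaks began 20 and 42 bp inside the gene and ended 21 and 22 bp beyond it. RPPH1 peaks began 33 and 37 bp inside the gene. The longest stretch before a gene was 62 bp, at RNU1-1 in replicate 1. On the SNORD3 genes the peak covered only the first part of the annotated gene, which is 758 bp long for SNORD3B-1.

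**Figure D2:**
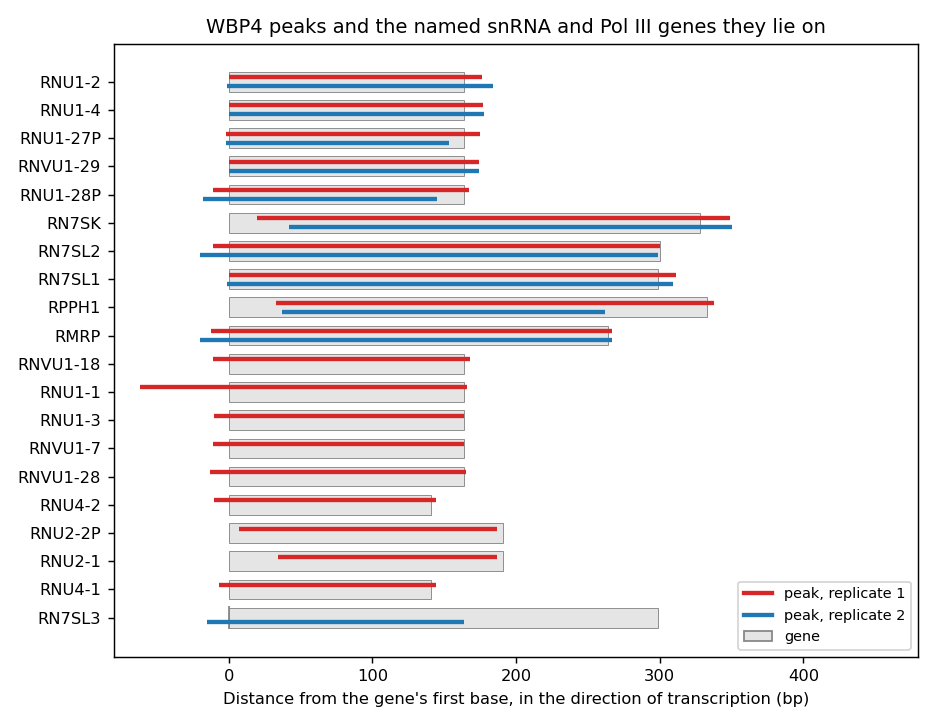
Extent of WBP4 peaks (red, replicate 1, and blue, replicate 2) on the 20 named snRNA and RNA polymerase III genes with a peak, as distance in bp from the first base of the gene (grey bar, to scale) in the direction of transcription. At RNU1-2 the peaks begin 0 and 1 bp before the gene and end 12 and 20 bp past it, and at RNU1-1 the peak reaches 62 bp before the gene.

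The tested question was whether WBP4 differed from the other ZFPs in the share of its peaks within 500 bp of the listed snRNA genes. WBP4 had 12 of 509 peaks there in replicate 1 (2.36%, exact 95% interval 1.22 to 4.08) and 4 of 452 in replicate 2 (0.885%, 0.242 to 2.25), a mean of 1.62% ± 1.04 (SD, n = 2). The other 35 ZFPs had a mean of 0.462% ± 0.844 (SD over ZFPs), and 11 of them had none. Only the lists labelled MBNL1 had a higher mean, 4.61%, which came from 13 of 141 peaks in replicate 1 and 0 of 289 in replicate 2. In that first MBNL1 list the highest fold was 103, against 3433 in the second, and 1 peak against 6 lay on EEF1A1 or MBNL1 exons. The share of WBP4 did not pass the threshold of 0.05 (two-sided exact permutation test over which ZFP is called WBP4, p = 0.0556, smallest possible p = 0.0278, adjusted over 6 measures p = 0.333). It passed, unadjusted, among only the 30 ZFPs, WBP4 included, whose replicates shared at least 25% of the shorter list (exact permutation p = 0.0333). That limit left out MBNL1 (22.7%), the only ZFP with a higher share. Permuting single lists does not keep the lists of a ZFP together, so it treats lists as independent although the ZFP is the unit. Unadjusted, the WBP4 share then passed with lists permuted one by one (exact permutation p = 0.0419). With the replicate number as a block it passed too (exact permutation p = 0.0409). It did not pass with either replicate left out (exact permutation p = 0.111 each) or with satellite-like peaks left out (p = 0.111). With peaks at U1 genes left out of every list, the WBP4 share was 0.399% (exact permutation p = 0.0833).

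None of the 5 other measures passed the test either, each with an adjusted p of 0.972 in the same exact permutation test. Peaks within 1 kb of a transcription start site (TSS) made up 34.0% ± 14.4 of the WBP4 lists (SD, n = 2), against 33.3% ± 23.5 over the other ZFPs. Satellite-like peaks, with at least 5 copies of the pentamer GGAAT on either strand within 100 bp of the summit, were 23.1% ± 7.97 against 27.1% ± 18.4. Peaks on contigs without a fixed place were 12.6% ± 3.71 against 11.1% ± 6.18. Of the shorter WBP4 list, 43.6% of peaks overlapped the other replicate, against 46.2% ± 19.5. Peaks that overlapped a peak of any other ZFP were 84.0% ± 0.897 of the WBP4 lists against 80.4% ± 10.8.

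**Figure D3:**
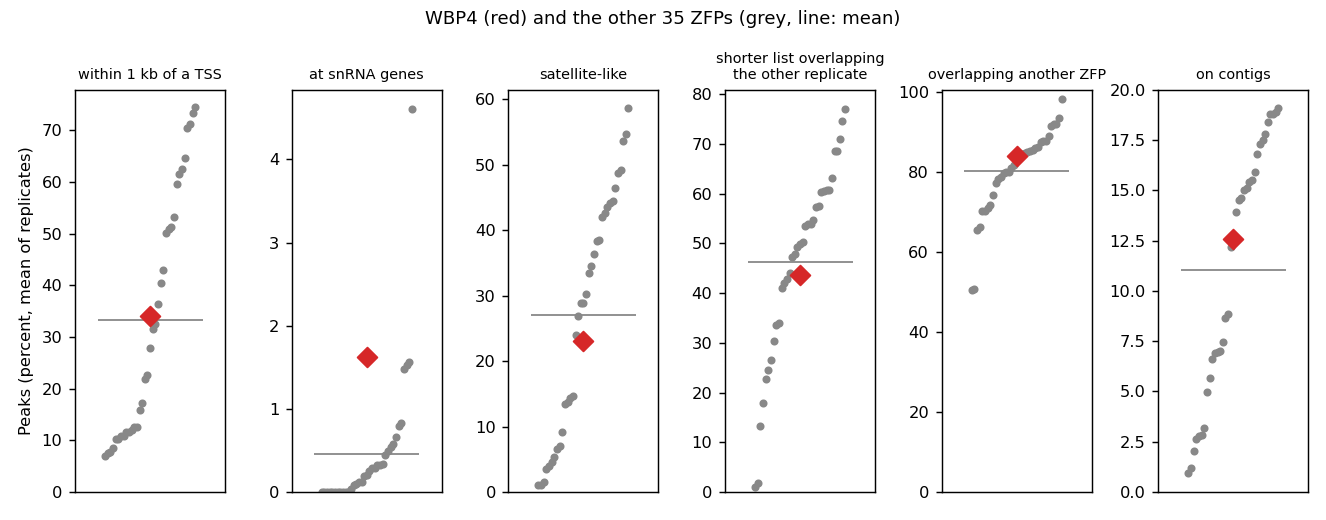
Percent of peaks with each of 6 features, as the mean of both replicates, for WBP4 (red diamond) and for each of the other 35 ZFPs (grey points in rising order, line at their mean). At snRNA genes WBP4 lies at 1.62%, with MBNL1 alone above it at 4.61%, and in the other panels WBP4 lies within the range of the grey points.

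Small RNA genes were shared with many ZFPs, though not with all. The lists may share a mock IP, since each was called against the mock IP of its own batch, and the sources used here do not name the batches. RNU1-2 was in a list of 17 other ZFPs and in both lists of 10, RN7SK in 24 and 17, and RN7SL1 in 27 and 12. At RNU1-2, RNU1-27P and RNVU1-29, none of the ZFPs with a peak in both replicates had a higher lower fold than WBP4. At RNU1-4 and RNU1-28P only CISD1 did. These genes were picked for their high lower folds in WBP4, which favours WBP4 in this ranking. It also leaves out peaks in a single replicate, such as that of ZMAT3 at RNU1-4 (68.3 in replicate 2, against 62.0 for WBP4). At the identical copies RNU1-1, RNU1-3 and RNVU1-18, WBP4 had a peak in replicate 1 only. There, both lists of CISD1, G2E3, GIN1 and SNRPC had a peak. SNRPC, a protein of the U1 snRNP and also a U1-type ZFP, had folds of 21.3 and 29.3 at RNU1-2. MAZ had 74.1 and 30.1 there, GIN1 60.6 and 25.3, and CISD1 49.6 and 40.8. These folds were set side by side without a test, since each is relative to its own mock IP. At RN7SK, CISD1 had 49.6 and 59.6 and GIN1 33.8 and 22.7, both above WBP4. WBP4 had a peak on 20 snRNA and RNA polymerase III genes with a symbol of their own, which leaves out the snoRNA genes and the unnamed U2 copies. CISD1 had peaks in both replicates on 18 of these 20, GIN1 and G2E3 on 16 each, SNRPC on 11 and WBP4 itself on 10. The lists of 5 ZFPs (BRCA1, RBM5, ZMAT5, ZNF574 and those labelled U2AF1) had a peak on none of the 20, though ZMAT5 had one on SNORD3B-1 in replicate 2 (fold 2.00).

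**Figure D4:**
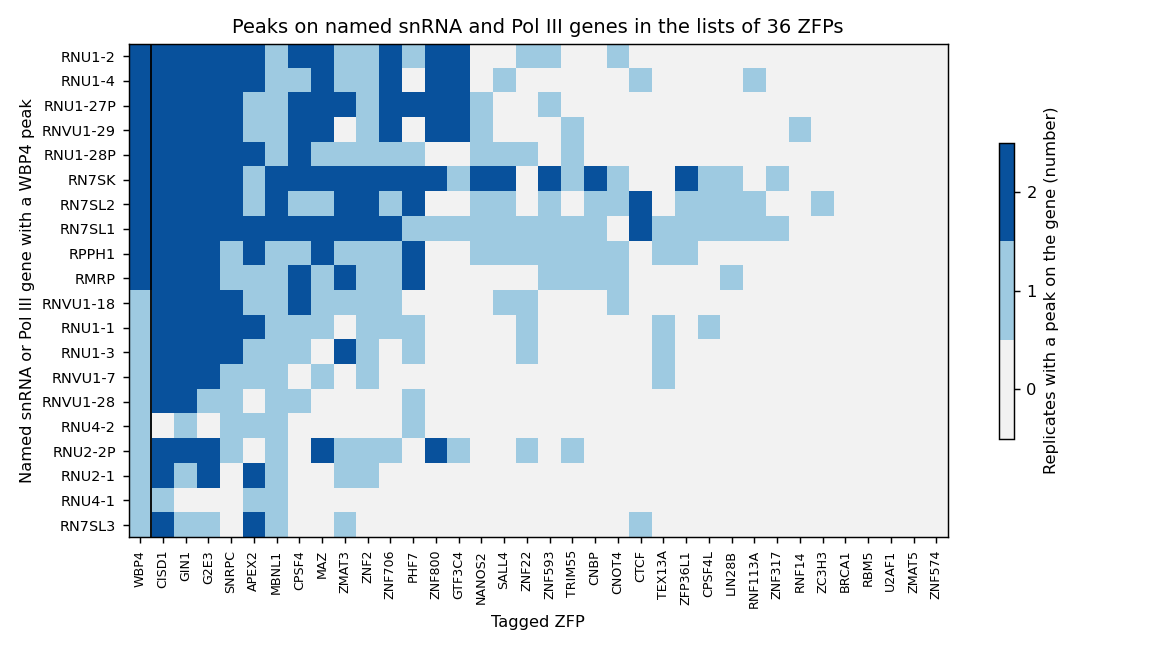
Number of replicates (0, 1 or 2, by colour) with a peak on each of the 20 named snRNA and RNA polymerase III genes with a WBP4 peak (rows; snoRNA genes and unnamed U2 copies are not drawn) in the lists of 36 ZFPs (columns, WBP4 first). CISD1, GIN1 and G2E3 have a peak in both replicates on 18, 16 and 16 of the genes, WBP4 on 10, and 5 ZFPs on the right on none.

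Ribosomal DNA gave 44 of the 173 regions of both replicates. These regions lay within 50 kb of an exact copy of the 5.8S ribosomal RNA gene (8 copies in hg38, on chromosome 21 and on 2 contigs) or shared at least 50% of their 25-base words with the repeat. Their folds ran from 3.63 to 17.5 in replicate 1 and from 2.95 to 35.3 in replicate 2, and only 13 further rDNA regions were in a single replicate. The copies cannot be told apart by reads inside the repeat. Of the regions in the class by shared words alone, one lay in an intron of HFM1 at chr1:91387263-91387563, where 96.4% of the words were found in the ribosomal repeat (folds 11.5 and 24.3). A pair on chromosome 21, chr21:8986644-8987576 (86.2% of words, folds 5.11 and 3.04) and chr21:8987735-8988706 (91.1%, 6.28 and 5.32), also lay farther than 50 kb from any 5.8S copy. All of the 10 highest regions over 1 kb from an annotated TSS and not satellite-like were of this class. The array of 5S rRNA genes on chromosome 1 gave 2 regions of both replicates, which lay between its genes, 576 and 562 bp from the nearest 5S TSS, with folds of 5.88 and 5.23, and 4.78 and 3.87.

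Satellite-like regions were the largest class of both replicates, 73 of 173, and had low folds, 1.47 to 7.79 in replicate 1 and 1.52 to 8.32 in replicate 2. Chromosome 4 held 20 of them, chromosome 1 held 13 and chromosome 10 held 11. The highest lay at chr10:42091507-42092011 (6.34 and 8.32), followed by chr20:31074819-31075928 (5.20 and 6.69) and chrY:10769162-10769690 (4.51 and 4.98). The middle of the first is shown with the pentamer in capitals, which occurs 10 times in these 200 bases.
chr10:42091660-42091859: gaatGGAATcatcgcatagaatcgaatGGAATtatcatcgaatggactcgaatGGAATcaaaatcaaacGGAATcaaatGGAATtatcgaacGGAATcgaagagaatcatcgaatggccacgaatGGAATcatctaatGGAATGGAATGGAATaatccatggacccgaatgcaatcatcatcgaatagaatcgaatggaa
The 8 regions besides EEF1A1 that were in lists of all 35 other ZFPs were all of this class. The 5 of them found in most lists included chr1:143219743-143220951 (folds 1.49 and 3.01) and chr17:21975808-21977128 (3.87 and 4.33), each in both lists of 31 ZFPs.

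Promoters of protein-coding genes were seldom found in both replicates. Of 192 regions within 1 kb of a protein-coding TSS that fell in no class above, 6 were in both (3.12%), 141 in replicate 1 only and 45 in replicate 2 only. The single-replicate regions had folds of 3.99 to 8.63, and 36 of these 186 overlapped no other ZFP's peak. By gene, 11 of 20033 protein-coding genes had a region of both replicates within 1 kb of a TSS (0.0549%) and 230 one of either replicate (1.15%). Of the 11, RPS29, GSTA4, PARP2, CCDC107 and CROCC stood next to RN7SL1, RN7SK, RPPH1, RMRP and RNU1-4, and DHX32 shared the FANK1 region. Of FANK1, CPNE7, ADAP1 and MICAL3, only FANK1 had the region at the TSS of its canonical transcript. The region in CPNE7 was 12132 bp, that in ADAP1 48189 bp and that in MICAL3 147081 bp from it, each near the start of a shorter annotated transcript.

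**Figure D5:**
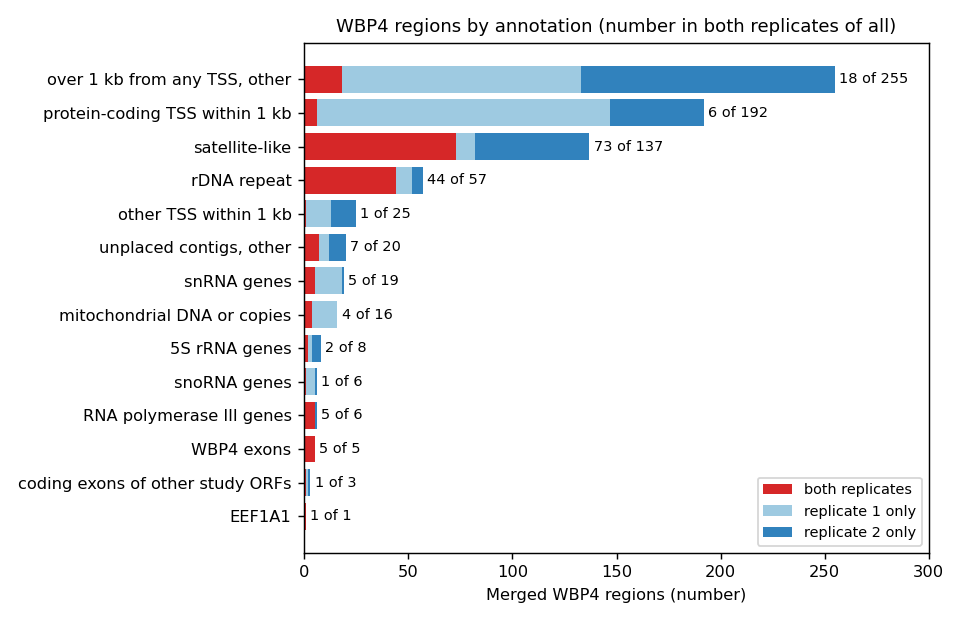
Number of merged WBP4 regions in each annotation class (horizontal axis), split into regions of both replicates (red), replicate 1 only (light blue) and replicate 2 only (dark blue). Of the regions near protein-coding TSSs 6 of 192 are in both replicates, against 44 of 57 in rDNA and 73 of 137 satellite-like regions.

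MALAT1, a long non-coding RNA of nuclear speckles, had a region of 541 bp inside its transcript, 2749 bp from the canonical TSS, with folds of 23.0 and 8.36. It was in a list of 9 other ZFPs.

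Coding exons of other ORFs in the study were also in the WBP4 lists. The last exon of APEX2, itself one of the tagged ZFPs, had folds of 15.0 and 9.88 (chrX:55006517-55007407, of which 890 of 891 bp were exonic), and was also in lists of APEX2, GIN1, MBNL1 and ZMAT3. Exon 10 of BRCA1, another tagged ZFP, had a peak in each replicate at different positions, with folds of 6.25 in replicate 1 and 6.08 in replicate 2. Whether traces of other plasmids had a part in these peaks was not tested.

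FANK1, at chr10:125896503-125896745, had folds of 5.90 and 5.17 and was the least shared of the 167 regions, found in single lists of G2E3 and GIN1. None of the 167 was in the WBP4 lists alone. In all, 156 of them (93.4%) were in a list of at least 10 other ZFPs and 56 in a list of at least 30, with a median of 27 ZFPs. The 577 regions of a single replicate were shared less widely, with a median of 4 other ZFPs, and 143 of them (24.8%) overlapped no other ZFP's peak. GIN1 overlapped 95.2% of the 167 WBP4 regions, which in turn covered 20.7% of the 644 regions found in both GIN1 replicates. For CISD1 these shares were 92.8% and 10.4%, and for SNRPC 86.2% and 64.3%.

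Away from annotated starts and outside the rDNA, satellite-like and other classes, the remaining regions of both replicates were mostly tandem repeats of other kinds. A region was counted as one when at least 60% of its bases matched the base at a fixed spacing of up to 150 bp. This held for 13 of the 18 regions of both replicates over 1 kb from any TSS in no other class (72.2%) and for 110 of the 237 of a single replicate (46.4%). Near protein-coding TSSs it held for 2 of the 6 regions of both replicates (33.3%), those in ADAP1 and MICAL3, and for 4 of the 186 of a single replicate (2.15%). The highest of the 18, in an intron of PRKCA at chr17:66798481-66799395 (folds 8.94 and 10.8), is built of short units. Its sequence is shown as neighbouring stretches of 120 bp, the spacing that matched best, with the bases that differ between them in capitals. These regions were named after their values were seen.
chr17:66798818-66798937: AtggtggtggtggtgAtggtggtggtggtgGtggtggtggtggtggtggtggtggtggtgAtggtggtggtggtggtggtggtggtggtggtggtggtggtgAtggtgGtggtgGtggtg
chr17:66798938-66799057: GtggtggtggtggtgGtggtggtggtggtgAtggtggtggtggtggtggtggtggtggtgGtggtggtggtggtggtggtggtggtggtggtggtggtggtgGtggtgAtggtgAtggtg
The CPNE7 region, chr16:89587890-89588064, also held a repeated word, shown in capitals, 6 times in 175 bases, although its best spacing matched under 60% of the bases.
CPNE7: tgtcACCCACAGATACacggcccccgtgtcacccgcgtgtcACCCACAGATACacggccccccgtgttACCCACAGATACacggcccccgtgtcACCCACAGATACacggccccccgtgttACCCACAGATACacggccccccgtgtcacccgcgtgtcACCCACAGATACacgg

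The replicates differed in kind as well as in number. Replicate 1 had more peaks within 1 kb of a TSS, 225 of 509 (44.2%) against 108 of 452 (23.9%), more regions at snRNA genes found once (13 against 1), and 12 peaks on mitochondrial DNA against 0. Replicate 2 had the larger satellite-like share, 28.8% (exact 95% interval 24.6 to 33.2) against 17.5% (14.3 to 21.1), and 55 satellite-like regions of its own against 9. The intervals cover counting error within each list only.

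Gene lists outside the small RNA genes gave few or no members at TSSs of both replicates, against 0.0549% of all protein-coding genes for both replicates and 1.15% for either. None of 82 spliceosome genes had such a region, and SF3A2 and SF3A3, which encode subunits of the U2 snRNP, had one in replicate 1 only (folds 4.26 and 5.61). Of the SR and hnRNP genes, CLK2, an SR protein kinase, and SRSF4, an SR splicing factor, had a region in replicate 1 only (5.24 and 5.49). Of 86 ribosomal protein genes the only one was RPS29, through RN7SL1. Immediate early genes had 0 of 35 in both and 2 in one replicate, GADD45A in replicate 1 (5.20) and KLF2 in replicate 2 (7.42). Of 47 proteasome genes PSMD6 was in replicate 2 only (5.26), and of 508 ZNF genes 0 were in both and 8 in replicate 1 only. No gene in the lists of heat shock (31), snoRNA host (29), mitochondrial ribosomal protein (78), histone (69) or translation factor genes (71) had a region of either replicate. Genes with a region in a single replicate were named here after their values were seen.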

How the data were processed

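Per the labels and the study's methods, the authors trimmed reads with Trimmomatic 0.36, aligned them to hg38 with Bowtie2 2.3.5.1, removed duplicates with Picard 0.1.8 and ran the peak caller MACS2 2.2.7.1 in its narrow mode on single replicates, with the mock IP of each batch as control. The deposited lists give each peak a score, a fold (the ratio of signal to the mock IP at the summit) and −log10 p- and q-values, as the authors' peak caller wrote them, and every deposited peak was used. Read counts were not used here, so the depth behind each fold is unknown. The fold and the q-value were used, not the score.

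Peaks that overlapped by at least 1 bp were merged into regions. Genes and TSSs came from GENCODE 44 (hg38), and the canonical transcript of a gene is that annotation's choice. Names of the study's other tagged ORFs came from its list of clones. Shares of peaks were compared over ZFPs by an exact permutation test, with the mean of both replicates as the value of a ZFP and Benjamini-Hochberg adjustment over 6 measures (scipy 1.17.1, pandas 2.3.3, pysam 0.24.0). Overlap and distance steps were tested on simulated data, overlaps against bedtools 2.31.1. The members, gene lists and tests were chosen with earlier results of these data known. Named regions were those at listed small RNA genes, the 20 with the highest lower fold near a protein-coding TSS, the 10 highest in no other ZFP's list, the 10 highest over 1 kb from a TSS and not satellite-like, the 3 highest satellite-like, up to 4 members of each other list, the 5 most shared, and WBP4 and EEF1A1. Some regions that this rule names are not reported here.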

Additional observations from a re-analysis of the deposited data

How the results depend on the processing

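The share of WBP4 peaks at snRNA genes, 1.62%, did not pass the threshold in the main test (exact permutation p = 0.0556, adjusted p = 0.333). Unadjusted, and at 1.62% in each case, this share passed under some alternatives. It passed among only the 30 ZFPs, WBP4 included, whose replicates share at least 25% of the shorter list (exact permutation p = 0.0333). That limit left out MBNL1 (22.7%), the only ZFP with a higher share. Permuting single lists splits the lists of a ZFP and treats them as independent, although the ZFP is the unit. The WBP4 share then passed with lists permuted one by one (exact permutation p = 0.0419). With the replicate number as a block it passed too (exact permutation p = 0.0409). It did not pass under 8 other settings, with exact permutation p from 0.0556 to 0.111, the highest without replicate 1 (0.885%), without replicate 2 (2.36%) and without satellite-like peaks (2.05%), and 0.0833 with q under 0.001 or genes within 2 kb. Replicate numbers were taken as names only, since the correlation of replicate differences was over 0.1 for 9 of 35 other ZFPs and not for all (median 0.03, range −0.07 to 0.23, over 664 regions), and the block changed no other call. The other measures stayed above the threshold under every alternative run, while differences from the mean of the other ZFPs changed sign in some. For TSS peaks this happened with q under 0.01 (33.9% of WBP4 peaks), q under 0.001 (31.2%), a limit of 500 bp (29.5%), protein-coding TSSs only (22.5%) and without replicate 1, for replicate overlap with q under 0.001 (55.8%), for satellite-like peaks without replicate 1 and for contigs without replicate 2. With 1 replicate left out, the WBP4 values ran from 23.9% to 44.2% for TSSs, from 17.5% to 28.8% for satellites and from 10.0% to 15.3% for contigs. Regions of both replicates fell from 173 to 100 without satellite-like peaks. A list alone gave 452 or 509 regions and 145 or 337 genes, since no second replicate was then required, against 61 genes with a region of both replicates. The median number of ZFPs sharing a region fell from 27 to 15 with a mutual overlap of 50% and to 17 when both replicates of the other ZFP were required. Canonical TSSs only and the snRNA share without U1 genes were chosen after seeing the data and changed no call. Replicate overlap without a replicate or with the block, and the satellite share without satellites, give no value.

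Each value rests on 2 replicates of 1 transfected line, and no read depth was available per library. Identical gene copies, ribosomal repeats and satellites cannot be resolved by these peaks, and they make up most of the regions found in both replicates. Peaks in a single replicate were not detectable in the other at these thresholds, which does not show that they were absent there.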

Other observations

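Mitochondrial DNA and its nuclear copies gave 4 regions of both replicates and 12 of replicate 1 only. The 4, all at copies outside the mitochondrial genome (near MTCO1P12, MTCO3P12, ENSG00000278791 and MIR4485), had folds of 2.22 to 3.44 in replicate 1 and 1.68 to 2.39 in replicate 2, and were in lists of 20 to 29 other ZFPs. Of the regions on unplaced contigs that were neither rDNA nor satellite-like, 7 of 7 in both replicates were tandem repeats, against 4 of 13 in a single replicate.

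Single-replicate regions with the highest folds near protein-coding TSSs were at C17orf80 (8.63, replicate 1), ENO1, the glycolytic enzyme enolase (7.58, replicate 1), and KLF2, a Krüppel-like transcription factor (7.42, replicate 2). They were in lists of 3, 9 and 1 other ZFPs.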
